A study of Homo sapiens with 5 samples.

Results

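Genome occupancy of MYC, E2F1 and Fra-1 was examined at the nuclear genes of the respiratory chain, the machinery of the inner mitochondrial membrane that makes most ATP of a respiring cell. The genes were chosen by symbol alone: every protein-coding gene of chromosomes 1 to 22 and X whose symbol begins with NDUF, UQCR, ATP5, COX4I, COX5, COX6, COX7 or COX8, plus SDHA, SDHB, SDHC, SDHD and CYC1. This rule took 99 of 20098 protein-coding genes, and the other 19999 served for comparison. The 99 genes comprised 40 subunit genes and 8 assembly factors (NDUFAF symbols) of complex I, 4 genes of complex II, 10 of complex III, 17 of complex IV and 20 of complex V. Among them, 2 are read-through genes (ATP5MF-PTCD1 and NDUFC2-KCTD14) that share a start with ATP5MF and NDUFC2. Grouping by symbol leaves NDUFA4 in complex I, although its product is now counted as a subunit of complex IV.

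The cells were MDA-MB-231 LM2, a human breast cancer line derived from MDA-MB-231 that spreads to the lung of mice. All samples were crosslinked with 1% formaldehyde for 15 min. The sample titles name no treatment, and a blot legend of the paper names cells with a control vector or a knockdown vector for ChIP-seq. The study asked which transcription factors act at genes that depend on Fra-1, an AP-1 subunit encoded by FOSL1. Each factor was immunoprecipitated in 1 library, with an input library as the shared control, so the lists carry no replicate spread and no test between conditions was possible. An EZH2 library is also among the samples, and no peak list of it was used here.

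Complex I (NADH dehydrogenase) and complex II (succinate dehydrogenase) feed electrons into the chain, complex III passes them to cytochrome c, complex IV hands them to oxygen, and complex V (ATP synthase) uses the resulting proton gradient. The transcription factors NRF1, the ETS factor GABP and YY1 are the classical regulators of these promoters, and MYC is known to raise mitochondrial biogenesis. E2F1 drives genes of S phase entry, and Fra-1 binds AP-1 sites, many of them in enhancers.

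The E2F1 list held 36933 peaks, the Fra-1 list 17320 and the MYC list 4867, from 12931227 to 23853621 tags after the removal of duplicates, and the input had 10758036. Fold enrichment is the number of fragments over the summit plus 1, divided by the background expected from the input plus 1. It was read within a factor and not between factors, because depth and antibodies differ. Intervals given beside a fold enrichment are 95% exact Poisson intervals of the fragment count. They hold the background fixed and cover counting error of that count only. A promoter peak overlapped, by at least 1 bp, the window from 2 kb upstream to 2.5 kb downstream of any annotated start site of the gene. Where a gene had several such peaks, the strongest was used.

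E2F1 occupied nearly the whole chain, MYC a part of it and Fra-1 few genes. E2F1 had a promoter peak at 91 of the 99 genes (91.9%), against 61.2% of the other protein-coding genes. MYC had a peak at 31 genes (31.3%), against 17.8% of the others. Fra-1 had a peak at 9 genes (9.09%), against 13.3%. Peaks of all 3 factors were found at 5 genes (5.05%), a share close to the 4.67% among the others. Every gene with a MYC or Fra-1 peak also had an E2F1 peak. Among the others, 3547 of 3556 genes with a MYC peak had one, and 180 of 2653 with a Fra-1 peak had Fra-1 alone. E2F1 was alone at 56 genes (56.6%, against 35.7% of the others). It was joined by MYC only at 26 (26.3%, against 13.1%) and by Fra-1 only at 4 (4.04%, against 7.69%). No peak of any factor was found at 8 genes (8.08%, against 37.9% of the others).

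The share of genes with a MYC peak differed along the chain. MYC peaks were present at 6 of 8 complex I assembly factors and 10 of 20 complex V genes. Complex I subunits had them at 11 of 40 genes, complex III at 2 of 10 and complex IV at 2 of 17. None of the 4 genes of complex II had a MYC peak. With a −log10 q of at least 5, 3 of 8 assembly factors, 7 of 20 complex V genes and 6 of 40 complex I subunits had one. Fra-1 peaks were found at 5 of 40 complex I subunits (12.5%), 2 assembly factors, SDHA of complex II and UQCRQ of complex III (10.0%). None were found among the 17 genes of complex IV and the 20 of complex V, and the share among other protein-coding genes was 13.3%. With canonical start sites alone, 3 complex I subunits and UQCRQ kept a Fra-1 peak. E2F1 had peaks at all 40 complex I subunits, all 8 assembly factors and all 4 complex II genes. It had them at 9 of 10 complex III genes, 19 of 20 complex V genes and 11 of 17 complex IV genes. The complex IV share (64.7%) was close to the 61.2% of the other protein-coding genes. No test was made between the complexes, whose gene numbers are small.

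**Figure D1:**
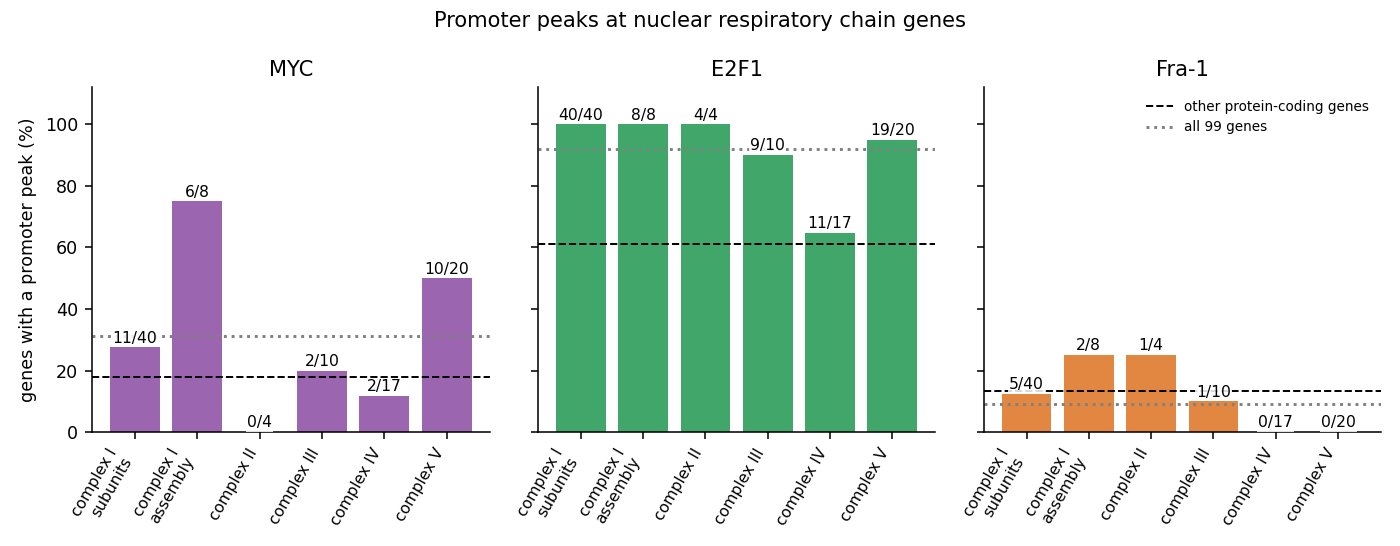
Percentage of genes with a promoter peak of MYC, E2F1 or Fra-1 (y axis) in each complex (x axis), with the number of genes above each bar. The dashed line is the share among the other protein-coding genes and the dotted line that among all 99 genes. For MYC the bars run from 0 of 4 in complex II to 6 of 8 among complex I assembly factors.

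Among complex I subunits, the strongest MYC peak was that of NDUFV3, an accessory subunit of the NADH-oxidizing module, with a fold enrichment of 17.5 (13.2 to 22.8). Its summit, at position 44299653 of chromosome 21 (hg19), lay 101 bp upstream of an alternative start of NDUFV3 and 3 bp from the start of WDR4, a tRNA methyltransferase subunit on the other strand. NDUFA7 followed at 10.4 (7.53 to 14.1), NDUFA11 at 9.65 and NDUFC1 at 9.33, all supernumerary subunits. The interval of NDUFA7 does not overlap that of NDUFS5, the weakest of the group (4.78, 3.04 to 7.28), while those of NDUFA11 (6.91 to 13.2) and NDUFC1 (6.54 to 13.0) do. Of the core subunits, which carry the flavin and the iron-sulfur clusters, NDUFS7 had a fold enrichment of 9.63 (6.67 to 13.5), NDUFS1 of 9.16 and NDUFS3 of 5.69. The remaining subunits with a MYC peak were NDUFAB1, the mitochondrial acyl carrier protein, NDUFB9 and NDUFS6, each at 5.67, and NDUFS5 at 4.78. Those of NDUFAB1, NDUFB9 and NDUFS6 rested on a scaled height of 6 fragments and a −log10 q of 3.23, close to the weakest peaks of the list.

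The 6 assembly factors with a MYC peak had modest values, from 4.09 to 7.16. NDUFAF3, which acts early in complex I assembly, had 7.16 (4.65 to 10.7), NDUFAF6 6.61 and NDUFAF2, a late-acting chaperone, 6.31. NDUFAF7, a methyltransferase of the mitochondrial matrix, had 5.69, NDUFAF8 5.67 and NDUFAF4, the partner of NDUFAF3, 4.09 (2.75 to 5.90), the lowest of all 31 genes. Intervals of the 6 factors overlap each other. The high share of MYC peaks in this group thus came with weak peaks, while NDUFAF1 and NDUFAF5 had none.

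In complex V, MYC fold enrichment was 15.6 (12.2 to 19.7) at ATP5MK, a small membrane subunit, and 13.5 (10.2 to 17.7) at ATP5MC2, which encodes the c subunit of the rotor ring. ATP5MC1, a second gene for the c subunit, had 8.81 (6.37 to 11.9), while ATP5MC3, which encodes the same mature protein, had no MYC peak. ATP5PD of the peripheral stalk had 8.08 (5.35 to 11.8), the catalytic-head gene ATP5F1A 7.94 and the stalk gene ATP5PB 7.72. ATP5ME had 6.66, ATP5F1D 6.33 and ATP5MF 5.67, and the read-through gene ATP5MF-PTCD1 shares the peak of ATP5MF. In complex V the interval of ATP5MK overlaps only that of ATP5MC2. The interval of ATP5MC2 also overlaps those of ATP5MC1, ATP5PD, ATP5F1A and ATP5PB, although its lower bound lies above their values.

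Complex III contributed UQCRH, the hinge protein that binds cytochrome c1, at 7.72 (5.72 to 10.2), and UQCR11 at 6.14. Complex IV contributed COX8A, the ubiquitous form of subunit VIII, at 7.97 (5.18 to 11.9), and COX4I1, the ubiquitous form of subunit IV, at 5.34. The median MYC fold enrichment of the 31 genes was 6.66 (95% binomial order-statistic interval 5.69 to 8.08), against 7.22 at the other genes with a MYC peak, and 14 of 31 lay above that value. Peaks with a −log10 q under 5 made up 12 of the 31 (38.7%), against 29.1% at other genes. MYC peaks were thus more frequent at respiratory chain genes than at all other genes, while the interval of their median includes that of the other genes. Among genes with an E2F1 peak the shares were closer. There MYC had a peak at 31 of 91 respiratory chain genes, against 3547 of 12230 other genes.

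**Figure D2:**
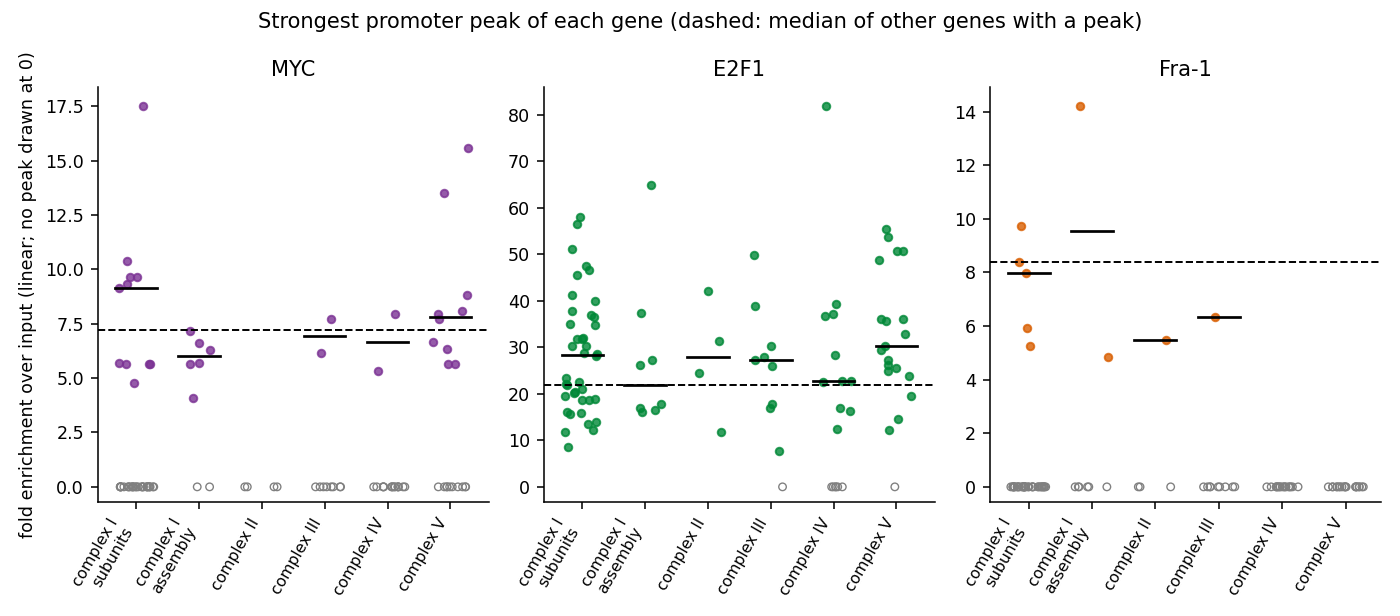
Fold enrichment over input of the strongest promoter peak of each gene (y axis, linear, a separate scale for each factor) by complex (x axis). Filled points are genes with a peak, open points at 0 are genes without a peak, short bars are medians over genes with a peak, and the dashed line is the median of the other genes with a peak. MYC reached 17.5 at NDUFV3, E2F1 81.8 at COX8A and Fra-1 14.2 at NDUFAF2.

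The E-box CACGTG, the sequence that MYC binds together with MAX, lay within 50 bp of 3 of the 30 distinct MYC summits (10.0%, Wilson interval 3.46 to 25.6), against 18.3% at other genes. Within 100 bp it was found at 9 of 30 (30.0%), against 25.4%. The 3 summits were those of ATP5MC1, NDUFAF4 and NDUFS6. The E-box lay 3 bp from the summit at ATP5MC1, 27 bp at NDUFAF4 and 37 bp at NDUFS6. These 30 bp stretches are shown because they hold the E-boxes nearest to MYC summits of the chain, with the E-box in capitals, from GRCh37 (hg19) and on the strand of the gene.
ATP5MC1 (chr17:46970141-46970170, plus strand): gaaggtccaggaCACGTGggtgggggaagc
NDUFAF4 (chr6:97345700-97345729, minus strand): cgccggtgttccCACGTGcggcctgaacct
NDUFS6 (chr5:1799990-1800019, plus strand): gggggggggggtCACGTGgcgtgcccacgt
The MYC summit of NDUFS6 lay 1553 bp upstream of its start and 16 bp from that of MRPL36. The strongest of the 3 peaks was that of ATP5MC1 (8.81), whose summit fell on an annotated start site of the gene, and NDUFAF4 had the weakest MYC peak of all (4.09). In the promoters (250 bp upstream to 50 bp downstream of the canonical start site), 8 of 31 genes with a MYC peak held an E-box and 1 of 68 genes without a MYC peak, NDUFAF5. Among other genes these shares were 15.5% and 7.27%. At 6 of the 8 genes the strongest MYC summit lay inside this stretch, among them NDUFA7, NDUFA11, NDUFS7 and ATP5MC1, and it lay outside at UQCR11 (530 bp from the canonical start) and NDUFAF6 (128858 bp).

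E2F1 fold enrichment was largest at COX8A, with 81.8 (70.9 to 94.0). NDUFAF3 followed with 64.8 (56.5 to 74.1), NDUFA7 with 58.0 (49.7 to 67.2), NDUFV3 with 56.4 (47.4 to 66.6) and ATP5PD with 55.4 (46.8 to 65.1). COX8A was above NDUFA7, NDUFV3 and ATP5PD in fold enrichment by intervals that do not overlap. The other 4 genes could not be told apart by theirs. This order depends in part on the background, which the intervals hold fixed. The scaled height was 117 fragments at COX8A on a background of 0.442, 128 at NDUFAF3 on 0.989 and 103 at NDUFA7 on 0.794. All 5 also had a MYC peak. The median over the 91 genes was 27.3 (23.4 to 30.3), against 22.0 at other genes with an E2F1 peak, and 61 of the 91 genes lay above 22.0. A −log10 q over 30 was reached by 88 of the 91 peaks.

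COX8A is a case in which both summits coincide, that of MYC at position 63742014 of chromosome 11 and that of E2F1 at 63742015, 77 bp upstream of the only annotated start. The 150 bp before this start hold the only match to the E2F pattern (TTTCCCGC, TTTCGCGC, TTTGCCGC or TTTGGCGC, on either strand) within 50 bp of any of the 89 distinct E2F1 summits (1.12%, against 3.25% at other genes). They are shown because this E2F1 peak has the largest fold enrichment of the chain. The E2F match and, nearer to the start, an ETS match (CCGGAAGT or its reverse complement) are in capitals.
COX8A (chr11:63741942-63742091, plus strand): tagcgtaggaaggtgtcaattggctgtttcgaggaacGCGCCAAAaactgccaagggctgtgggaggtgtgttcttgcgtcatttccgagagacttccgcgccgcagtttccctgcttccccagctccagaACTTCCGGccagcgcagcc
The E2F match appears here on the other strand. NDUFA7 and ATP5PD, whose E2F1 summits lay within the promoter stretch searched, had no match to this pattern there.

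Within complex V, E2F1 values ran from 12.2 (ATP5MJ) to 55.4 (ATP5PD), with a median of 30.3, and in complex I subunits from 8.47 to 58.0, with a median of 28.4. NDUFV1, the core subunit that binds NADH, had 47.4 (39.5 to 56.4), while NDUFV2, its neighbour in the same module, had 14.0 (11.0 to 17.7). Core subunits of complex I as a group had a median of 23.4 (7 genes) and supernumerary subunits of 28.6 (33 genes), with ranges that overlap widely.

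The 4 subunits of succinate dehydrogenase, all nuclear-encoded, each had an E2F1 peak. SDHD, a membrane anchor, had 42.2 (35.6 to 49.8), SDHA, the flavoprotein, 31.4 (25.1 to 38.9), SDHB, the iron-sulfur subunit, 24.5 (18.7 to 31.5), and SDHC, the other anchor, 11.7 (8.87 to 15.1). SDHC lay below the other 3 in fold enrichment by intervals that do not overlap. Neighbours among SDHD, SDHA and SDHB could not be told apart. SDHC and SDHB had close heights over the summit, 33 and 34 scaled fragments. Their values differ through the background, 1.92 and 0.430, which the intervals hold fixed, so the intervals do not settle their order. The summit at SDHD was 1 bp from the start of TIMM8B, a mitochondrial import gene on the other strand, and that at SDHA was nearest to CCDC127.

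CYC1, which encodes cytochrome c1 of complex III, had the lowest E2F1 value of the 91 genes, 7.66 (4.74 to 11.9). It carried 5 separate E2F1 peaks over its short gene, with values from 5.48 to 7.66, in place of a single high peak. The other complex III genes with a peak reached 17.0 to 49.9, UQCRQ being the highest (41.4 to 59.5).

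Fra-1 peaks were few. The strongest Fra-1 summit lay within 500 bp of a start site of the gene at 4 of 9 genes (44.4%), close to the 49.3% at other genes. An E2F1 promoter peak overlapped the strongest Fra-1 peak at 8 of the 9 genes (88.9%, against 79.5% at other genes), all but NDUFV2. At NDUFS3, NDUFS7 and UQCRQ this was the strongest E2F1 peak of the gene, and at the other 5 a weaker one, with values from 4.01 at NDUFAF6 to 21.0 at NDUFV3. NDUFAF2 had the highest, with a fold enrichment of 14.2 (10.7 to 18.5), in an intron 106311 bp downstream of the canonical start and 1140 bp from an alternative start. NDUFS7 had 9.72 (5.92 to 15.2), NDUFS8 8.40 (5.20 to 13.0) and NDUFS3 7.97 (4.85 to 12.5), all core subunits of complex I. These 3 have overlapping intervals. Lower values were found at UQCRQ (6.32), NDUFV3 (5.91), SDHA (5.48), NDUFV2 (5.24) and NDUFAF6 (4.86). Of the 7 core subunits of complex I, 4 had a Fra-1 peak (NDUFS3, NDUFS7, NDUFS8 and NDUFV2). So had 1 of 33 supernumerary subunits (3.03%) and 13.3% of the other protein-coding genes. With canonical start sites alone NDUFS8 and NDUFV2 had none, and with the list cut to its 4867 strongest peaks none of the 4 had one. The gene numbers are small, and the difference was not tested. The median of the 9 genes was 6.32 (5.24 to 9.72), against 8.38 at other genes with a Fra-1 peak, and 3 of 9 lay above it.

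Only at NDUFS3, NDUFS7, NDUFV2 and UQCRQ did the Fra-1 summit lie within 500 bp of a start site of the gene. For NDUFV2 this was an internal start, 14737 bp from the canonical one, and for UQCRQ the start of GDF9 was nearer (38 bp). At SDHA the summit was 34284 bp from the canonical start, at NDUFAF6 76217 bp and at NDUFS8 6425 bp, beyond the annotated end of the gene. The median distance to the nearest own start was 812 bp, against 523 bp at other genes.

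AP-1 sites (TGACTCA or TGAGTCA) lay within 50 bp of 3 of the 9 Fra-1 summits (33.3%, Wilson interval 12.1 to 64.6), against 51.0% at other genes. The 3 were NDUFAF2, NDUFV2 and NDUFAF6. None of the 99 promoter stretches held an AP-1 site, against 3.60% of the others, and a count of 0 among 99 allows a share of up to 3.74% by the Wilson interval. The sites at NDUFAF2 and at NDUFV2, which has a pair of them, are shown because they lie within 50 bp of Fra-1 summits far from the canonical start, with the AP-1 site in capitals (GRCh37, strand of the gene).
NDUFAF2 (chr5:60347315-60347344, plus strand): ggttgtcagataTGAGTCAtagtgggaaaa
NDUFV2 (chr18:9117392-9117421, plus strand): ggaggatacagtTGACTCAtttgtacagag
NDUFV2 (chr18:9117414-9117443, plus strand): gtacagagtataTGACTCAtttgtacagaa
NDUFS7 and NDUFS3, whose Fra-1 summits lay at the start sites, had no AP-1 site within 50 bp.

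The 5 genes with peaks of all 3 factors were NDUFS3, NDUFS7, NDUFV3, NDUFAF2 and NDUFAF6, all of complex I. At NDUFS7, which carries the last iron-sulfur cluster before ubiquinone, the fold enrichment of E2F1 was 23.4, beside 9.63 (MYC) and 9.72 (Fra-1). At NDUFS3 the E2F1 peak had 22.1, the Fra-1 peak 7.97 and the MYC peak 5.69. The 3 peaks overlapped one another at these 2 genes alone, over chr11:47600500-47600619 at NDUFS3 and chr19:1383722-1383919 at NDUFS7. The MYC and Fra-1 summits were 22 bp apart at NDUFS3 and 70 bp apart at NDUFS7. At NDUFV3 they were 12907 bp apart, at NDUFAF2 103325 bp and at NDUFAF6 205075 bp, so that these genes joined the group by peaks at different start sites. The stretch around an NRF1 match in the shared region of NDUFS7 is shown (GRCh37, plus strand), since no AP-1 site was found there.
NDUFS7 (chr19:1383821-1383850, plus strand): gttccggtttcCGCATGCGCtccgagccgc
This match is to GCGCANGCG, the core of the NRF1 site, on the other strand and in capitals. The E-box of NDUFS7 lies elsewhere in its promoter stretch.

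The 8 genes with no peak of any factor were ATP5MGL, COX4I2, COX6A2, COX6B2, COX7A1, COX7B2, COX8C and UQCRHL. COX6A2 and COX7A1 are the heart and skeletal muscle forms of their subunits, COX6B2, COX7B2 and COX8C are expressed mainly in testis, and COX4I2 is a form of lung and hypoxic cells. UQCRHL and ATP5MGL are copies of UQCRH and ATP5MG. The list of 8 restricted paralogs that was examined held the 6 COX genes, UQCRHL and NDUFA4L2, and 7 of them had no peak. The exception, NDUFA4L2, a gene induced by hypoxia, had an E2F1 peak of 8.47 (5.34 to 12.9) at 1606 bp from its nearest start. The ubiquitous counterparts all had an E2F1 peak, with 39.2 at COX4I1, 28.3 at COX6A1, 37.1 at COX6B1, 17.0 at COX7A2, 22.8 at COX7B and 81.8 at COX8A. Complex IV therefore had E2F1 peaks at 11 of 17 genes, and at 11 of 11 genes without the paralogs, while MYC had 2 of 11. A gene with no peak in a list may still hold signal below the q-value of 0.01, and no value is listed for it.

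E2F1 and MYC summits sat at start sites. The strongest E2F1 summit lay a median of 26 bp from the nearest start of the gene (91 bp at other genes), and 88 of 91 (96.7%) were within 500 bp, against 86.5%. For MYC the median was 78 bp (127 bp at other genes), and 29 of 31 (93.5%) were within 500 bp, against 81.7%. By the annotation, 53 of the 91 E2F1 summits fell in an exon of the gene, 31 upstream of it, 6 in an intron and 1 downstream. Of the 31 MYC summits, 12 fell in an exon, 10 upstream and 9 in an intron. Windows of the respiratory chain genes were shorter than those of the others (median 7845 against 9231 bp), although they had more start sites (6 against 5).

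The 3 E2F1 summits beyond 500 bp were those of NDUFS8, NDUFS6 and NDUFA4L2. At NDUFS8 the strongest peak (41.3) was 147 bp from the start of TCIRG1, and a second peak of 39.9 lay 1 bp from the start of NDUFS8 itself. NDUFS6 likewise had its strongest peak (51.1) nearest to MRPL36 and a second of 30.0 at 36 bp from its own start. Both genes thus kept a high peak at their own start.

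**Figure D3:**
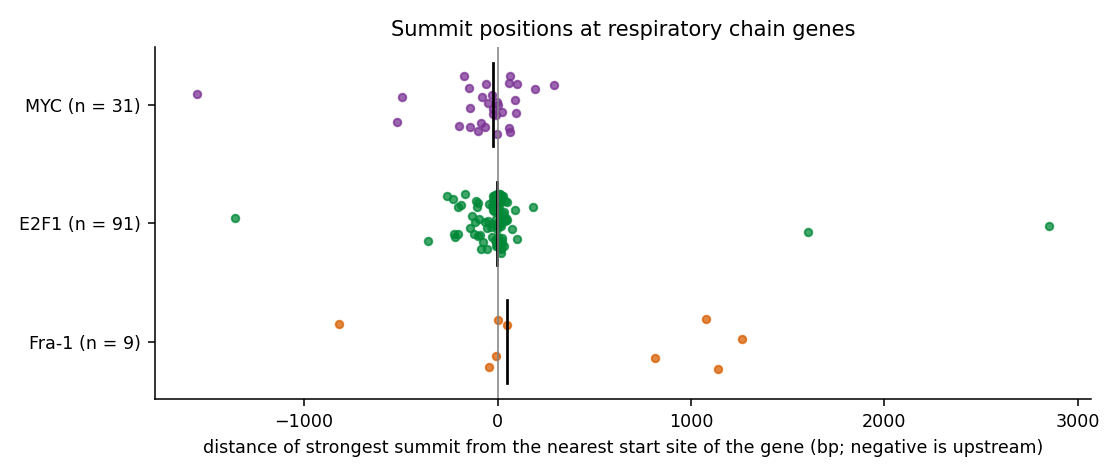
Distance in bp of the strongest summit from the nearest start site of the gene (x axis, negative is upstream), for MYC, E2F1 and Fra-1 (rows), with 1 point per gene and a vertical bar at the median. MYC and E2F1 points gather at 0, where 29 of 31 and 88 of 91 lie within 500 bp. Fra-1 points spread, with 4 of 9 within 500 bp (44.4%, against 49.3% at other genes, which are not drawn).

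Many of these genes share their promoter with a gene on the opposite strand. A start of another protein-coding gene lay within 1 kb upstream on the other strand at 33 of the 99 genes (33.3%), against 12.4% of the others, at a median distance of 145 bp. MYC had a peak at 15 of these 33 genes (45.5%) and at 16 of the other 66 (24.2%), and among other genes the shares were 38.0% and 14.9%. All 33 had an E2F1 peak, as had 91.0% of the other genes with such a partner. The partner of NDUFA7 is RPS28, a protein of the small ribosomal subunit, and that of NDUFS1 is EEF1B2, a translation elongation factor subunit (both named after their values were seen). ATP5PF, a peripheral stalk subunit, faces GABPA, the DNA-binding subunit of GABP, across 68 bp.

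A peak between such genes cannot be given to either of them. At 12 of the 31 genes the strongest MYC summit was nearer to the start of another protein-coding gene, a larger share than the 756 of 3556 outside the chain. For the strongest E2F1 summit this held at 21 of the 91 genes, against 1955 of 12230 outside the chain. For MYC these included NDUFV3 (WDR4), ATP5MK (PDCD11, at 40 bp), NDUFC1 (NAA15), NDUFS1 (EEF1B2) and UQCRH (LRRC41), and at NDUFA7 and ATP5MF-PTCD1 the other gene starts at nearly the same place. When a peak counted only for the nearest start, MYC peaks were found at 21 genes (21.2%, against 14.7% of the others), 6 of them complex I subunits, and E2F1 peaks at 78 (78.8%, against 55.3%).

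All 31 of the strongest MYC peaks overlapped an E2F1 promoter peak (98.4% at other genes), with summits a median of 72 bp apart. E2F1 peaks were higher at genes that also had a MYC peak, with a median of 36.0 (27.3 to 46.7, 31 genes) against 24.2 (20.2 to 28.8, 60 genes). The same was seen at other genes, with 32.1 against 18.4. Of the 23 genes with the highest E2F1 fold enrichment 14 had a MYC peak, and of the 23 with the lowest 4 had one. In complex I subunits the medians were 37.0 with and 21.1 without a MYC peak, and in complex V 35.8 and 29.4, with ranges that overlap in both (22.1 to 58.0 and 8.47 to 47.4, 19.6 to 55.4 and 12.2 to 48.8). The other groups with a MYC peak have 2 genes on one side: complex IV had 60.5 with (2 genes) and 22.8 without, complex III 22.4 with (2 genes) and 27.3 without, and the assembly factors 22.1 with and 22.0 without (2 genes). Genes outside this order were UQCRQ (49.9), ATP5F1C (48.8) and NDUFV1 (47.4), each with a high E2F1 peak and no MYC peak.

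**Figure D4:**
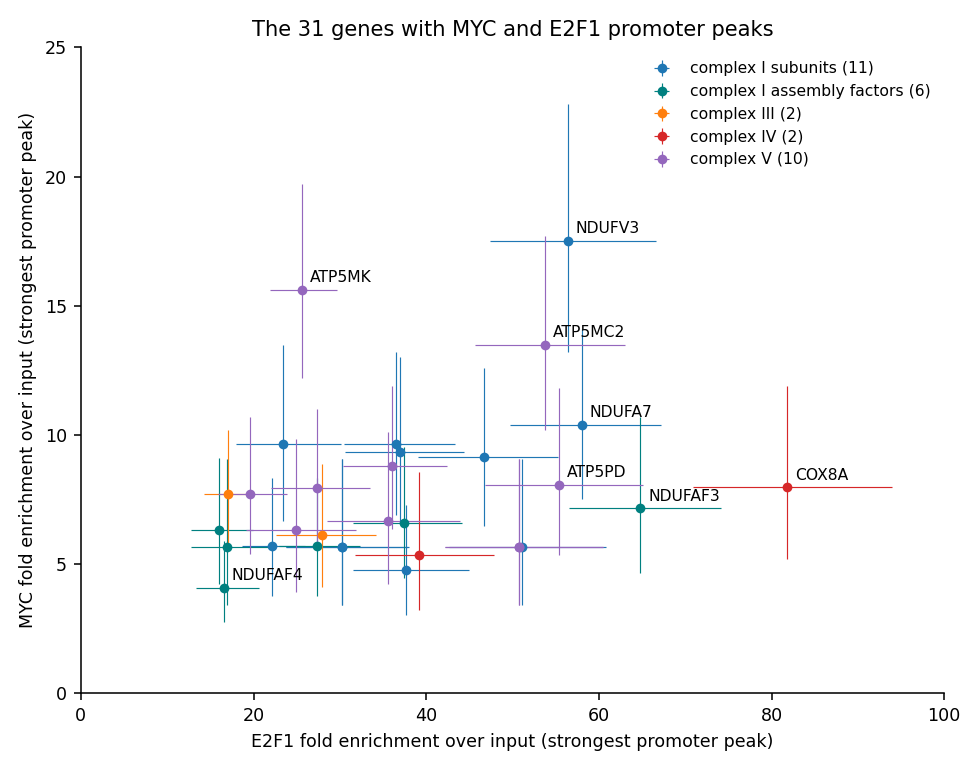
MYC fold enrichment (y axis) against E2F1 fold enrichment (x axis) over input at the strongest promoter peaks of the 31 genes with both, coloured by complex, with 95% Poisson intervals (counting error only). NDUFV3, ATP5MK and ATP5MC2 have the largest MYC values, with intervals that in part overlap those of other genes. COX8A has the largest E2F1 value with a MYC value of 7.97.

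Promoter sequence was searched for the sites of the classical regulators and of the 3 factors, on both strands. NRF1 matches (GCGCANGCG) were present in 28 of 99 promoter stretches (28.3%, Wilson interval 20.4 to 37.8), against 10.8% of other promoters and 15.4% of other promoters with an E2F1 peak. ETS matches (CCGGAAGT) were present in 13.1%, against 6.08% and 9.39%. YY1 matches (AAGATGGCG) were present in 12.1% (7.07 to 20.0), against 2.78% and 4.32%. At least 1 of these 3 sites was found in 47 promoters (47.5%), against 18.0% of the others and 26.4% of those with an E2F1 peak. For NRF1 and YY1 the interval excludes both comparison shares, and for ETS it includes that of promoters with an E2F1 peak.

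By complex, NRF1 matches were found at 2 of 4 genes of complex II, 5 of 10 of complex III, 7 of 20 of complex V, 10 of 40 complex I subunits and 3 of 17 genes of complex IV. YY1 matches were found at 7 of 40 complex I subunits and at no gene of complex IV. E-boxes were found in 9.09% (4.86 to 16.4), an interval that includes the 8.74% of the others and the 10.3% of those with an E2F1 peak. GC boxes (GGGCGG) were found in 60.6% (50.8 to 69.7), close to the 61.0% of the others and below the 74.1% of those with an E2F1 peak. The E2F pattern was found in 8.08% (4.15 to 15.1), an interval that includes the 4.33% of the others and the 5.66% of those with an E2F1 peak. The promoters had a median GC content of 61.0%, against 63.7% of the others and 66.0% of those with an E2F1 peak. These matches describe the letters of the window and not binding.

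**Figure D5:**
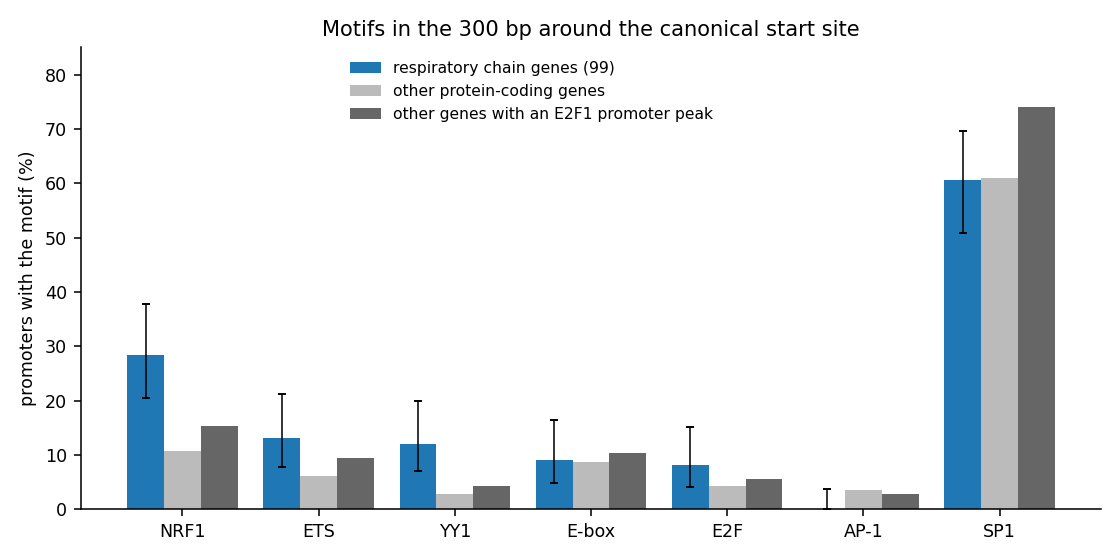
Percentage of promoter stretches (250 bp upstream to 50 bp downstream of the canonical start site, y axis) with each motif (x axis) among the 99 genes, the other protein-coding genes and the other genes with an E2F1 promoter peak. Error bars are 95% Wilson intervals. NRF1 stands at 28.3% against 10.8% and 15.4%, and AP-1 at 0 of 99.

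These sites also lay at the E2F1 summits more often than an E2F site did. An NRF1 match lay within 50 bp of 11 of the 89 E2F1 summits (12.4%, Wilson interval 7.04 to 20.8), against 3.55% at other genes. YY1 matches lay there at 6 of 89 (6.74%, 3.13 to 13.9), against 2.04%. ETS matches also lay there at 6 of 89, with the same interval, which includes the 3.35% of other genes. The stretches below are examples of each, from members of complexes II, III and V, with the NRF1, ETS or YY1 match in capitals (GRCh37, strand of the gene). They were picked after the values were seen, to show each kind of site within 50 bp of an E2F1 summit.
SDHD (chr11:111957476-111957505, plus strand): cagctgtgtttGCGCATGCGCgacgggtgt
ATP5MC2 (chr12:54069783-54069812, minus strand): tctgtgcgctGCGCACGCGcgcgggacacc
UQCRQ (chr5:132202269-132202298, plus strand): aatggtatctcCCGGAAGTtacctcacgac
ATP5PF (chr21:27107205-27107234, minus strand): cggagccagggCCGGAAGTagagcggaggt
SDHB (chr1:17380498-17380527, minus strand): gtcaggagccAAGATGGCGgcggtggtcgc
At SDHD the NRF1 match is longer because matches on both strands overlap. In ATP5PF the ETS match ends immediately before the canonical start site.

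A list of 53 further genes of the pathway, which encode assembly factors, cytochrome c, mitochondrial DNA maintenance factors and transcriptional regulators, was examined in the same way. MYC had a promoter peak at 28 of the 53 (52.8%), E2F1 at 52 (98.1%) and Fra-1 at 7 (13.2%), beside 17.8%, 61.2% and 13.3% of the protein-coding genes outside the chain. The exception for E2F1 was PPARGC1A, the coactivator of mitochondrial biogenesis, which had no peak of any factor. Its relatives PPRC1 and PPARGC1B had MYC peaks of 18.5 and 9.30. The 6 genes with peaks of all 3 factors (11.3%, beside 4.67%) were ATPAF2, an ATP synthase assembly factor, ECSIT of complex I assembly, ESRRA, a nuclear receptor of mitochondrial genes, GABPB1, the partner subunit of GABPA, and TTC19 and UQCC1 of complex III assembly. UQCC1 had 46.2 for E2F1 beside 8.17 (MYC) and 26.2 (Fra-1), a Fra-1 value above that of any of the 99 genes.

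Set beside other mitochondrial and translation genes, the respiratory chain was at the lower end for MYC. Peaks of MYC were present at 35 of 78 mitochondrial ribosomal protein genes (44.9%) and at 78 of 86 cytosolic ribosomal protein genes (90.7%), with median fold enrichments of 7.65 and 10.6. E2F1 had peaks at 98.7% and 96.5% of them, and Fra-1 at 10.3% and 14.0%. The 91 respiratory chain genes other than the tissue-restricted paralogs had MYC peaks at 34.1% and E2F1 peaks at 98.9%.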

How the data were processed

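According to the study's methods and the submitters' processing notes, the authors aligned Trimmomatic 0.27-trimmed reads to hg19 (Bowtie 0.12.5, unique matches only), removed duplicates and called peaks per library with MACS2 (2.0.10.20120913 per the file headers) at a q-value cutoff of 0.01 against the input. As deposited, signal means the fragment pileup at the summit, with the larger library scaled down, the fold enrichment is its ratio to the local background, and p- and q-values are −log10 values. Scaling leaves weak MYC peaks with few fragments, and unique alignment can lose identical gene copies.

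From these lists, promoter peaks were assigned with GENCODE 44 start sites on GRCh37. Of the protein-coding genes, 279 lack a canonical tag and were given their longest transcript. Intervals use the unscaled pileup with the background held fixed. Motifs were searched in the GRCh37 genome. The genes named are the 10 with the largest MYC values, those with a Fra-1 peak, the 5 with the largest E2F1 values, those without an E2F1 peak, the tissue-restricted paralogs, the SDH genes and CYC1, and pathway genes with all 3 peaks; further names were chosen after their values were seen. The members and lists were chosen with earlier results of these data known. Alternatives were stricter peaks, equal peak numbers, other windows and start sites, and other motif stretches. Scripts used pysam 0.24.0, scipy 1.17.1, pandas 2.3.3, numpy 2.4.6 and Python 3.11.15 and were tested on simulated peaks.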

Additional observations from a re-analysis of the deposited data

How the results depend on the processing

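Of 72 alternative values over 16 results, 12 moved and 60 did not, where a count had to change by over 1.5 times and a median or a motif share had to leave the 95% interval of the reported value. Motif shares that stayed in their wide intervals while changing by over 1.5 times were E-boxes (16.2%) and AP-1 sites (2.02%) in the longer promoter stretch, the E2F pattern at the start nearest to the E2F1 summit (5.05%) and the E2F pattern within 100 bp of E2F1 summits (2.25%). The share of respiratory chain genes with a peak was above that of the other genes for MYC and E2F1 and below it for Fra-1 in all 9 settings. These settings include the main one and use the same peak lists, so they are not independent of each other. With a −log10 q of at least 5, MYC peaks were found at 19 genes (19.2%, against 12.7%). Peaks of all 3 factors were then found at 3 (3.03%, against 3.11%), both lower by construction of the stricter list. With each list reduced to its 4867 strongest peaks, E2F1 was found at 59 genes (59.6%, against 25.5%) and Fra-1 at 1 (NDUFAF2, 1.01%, against 3.45%). All 3 factors were then found at 0 genes (against 0.870%), and the median fold enrichment became 34.7 for E2F1 and 14.2 for Fra-1. With canonical start sites alone, Fra-1 was found at 4 genes (4.04%, against 7.25%) and all 3 factors at 2 (2.02%, against 2.80%). Peaks counted only for the nearest start gave all 3 factors at 3 genes (3.03%, against 3.79%). GC boxes rose to 72.7% in the longer promoter stretch (500 bp upstream to 100 bp downstream), and E-boxes to 30.0% within 100 bp of MYC summits. No paired analysis was possible because each factor has 1 library. With 1 library per factor the spread between cultures is unknown, and intervals cover counting error only. Peaks at shared promoters cannot be assigned to 1 gene, and promoter peaks do not show that the factor acts on the gene.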
